A study of Mus musculus with 5 samples.

Results

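The Zfp genes are mouse genes named for zinc finger proteins. In the RNA of SMARTA CD4 T cells, they were taken as every listed gene whose name is Zfp followed by a digit: 290 of the 11924 genes listed in all 5 libraries. SMARTA cells carry a transgenic T cell receptor for a viral glycoprotein peptide and were sorted as CD4+ CD45.1+ donor cells from C57BL/6 mice. The naive library held SMARTA cells from spleen with no treatment. The 4 primed libraries held SMARTA cells taken on day 8 from the inguinal lymph node beside the tumor: untreated, given CTLA4 blocking antibody (anti-CTLA4), Treg-depleted with toxin, and Treg-depleted with the antibody as well (both treatments). The labels give no toxin receptor allele and no number of mice per library. Each group was 1 library, so no difference has a replicate check and no p-value is given. Tissue, priming and library cannot be told apart in any comparison with naive cells.

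Most Zfp proteins carry arrays of C2H2 fingers, short loops that each hold a zinc ion and read a few bases of DNA. In many of them a KRAB box near the amino end recruits Trim28, which brings the histone methyltransferase Setdb1 and HP1 proteins to silence transposons and some genes. A small CCCH group, Zfp36, Zfp36l1 and Zfp36l2, instead binds AU-rich elements in mRNA and promotes decay of cytokine and cell-cycle transcripts, which restrains T cell activation.

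By a motif search in GENCODE M21 coding sequences, 162 of the 290 genes encoded a KRAB box, with a median of 12 C2H2 fingers. A further 108 encoded at least 2 C2H2 fingers and no KRAB match, with a median of 8, though the search can miss divergent KRAB boxes. The other members were 3 CCCH genes, 14 genes with fewer than 2 matched fingers, and 3 with no protein model. Of the KRAB genes, 133 had another Zfp gene within 100 kb. Chromosome 7 held 70 members, chromosome 17 held 41 and chromosome 13 held 28. For 23 members over 25% of the 31-base words in their last 300 transcript bases also occurred in another gene, so 3′ reads could be split between copies. Zfp706 (47.1%) and Zfp91 (33.3%) are among them.

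RefSeq gave a promoter for 242 members on GRCm38.p6. The 250 bases before the start are shown for 4 members that were lower in all 4 primed libraries and for Zfp367, which was higher in all 4. Capitals mark matches, on either strand, to the CCAAT box (CCAAT), the TATA box (TATAAA) or the GC box (GGGCGG), and matches of different motifs may overlap. The search also covered an ETS core (CCGGAAG), an NRF1 site (GCATGCG), a ZNF143 core (ACTACAA), a YY1 core (AAGATGG), a palindromic element (CTCGCGAG) and the CRE (TGACGTCA).
Zfp869, chr8:69716903-69717152, minus strand: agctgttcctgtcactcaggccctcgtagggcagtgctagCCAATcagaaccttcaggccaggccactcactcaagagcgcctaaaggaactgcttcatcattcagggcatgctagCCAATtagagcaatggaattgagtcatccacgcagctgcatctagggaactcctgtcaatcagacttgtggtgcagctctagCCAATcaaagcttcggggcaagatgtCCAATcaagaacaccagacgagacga
Zfp950, chr19:61140841-61141090, minus strand: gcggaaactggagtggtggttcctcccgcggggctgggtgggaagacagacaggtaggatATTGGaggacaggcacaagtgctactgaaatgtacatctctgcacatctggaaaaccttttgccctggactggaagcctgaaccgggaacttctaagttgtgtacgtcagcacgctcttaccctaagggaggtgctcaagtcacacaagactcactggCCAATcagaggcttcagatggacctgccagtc
Zfp101, chr17:33394638-33394887, minus strand: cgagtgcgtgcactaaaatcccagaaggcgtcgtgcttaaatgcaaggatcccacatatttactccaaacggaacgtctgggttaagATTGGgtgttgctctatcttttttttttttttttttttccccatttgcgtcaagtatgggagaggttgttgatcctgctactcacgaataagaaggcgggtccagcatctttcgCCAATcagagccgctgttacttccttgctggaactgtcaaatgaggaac
Zfp329, chr7:12818861-12819110, minus strand: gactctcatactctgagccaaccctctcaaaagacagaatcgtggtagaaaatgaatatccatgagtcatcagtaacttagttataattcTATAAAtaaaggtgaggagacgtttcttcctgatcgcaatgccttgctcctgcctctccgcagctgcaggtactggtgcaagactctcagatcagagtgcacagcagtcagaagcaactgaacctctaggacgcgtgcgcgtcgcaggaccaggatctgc
Zfp367, chr13:64153200-64153449, minus strand: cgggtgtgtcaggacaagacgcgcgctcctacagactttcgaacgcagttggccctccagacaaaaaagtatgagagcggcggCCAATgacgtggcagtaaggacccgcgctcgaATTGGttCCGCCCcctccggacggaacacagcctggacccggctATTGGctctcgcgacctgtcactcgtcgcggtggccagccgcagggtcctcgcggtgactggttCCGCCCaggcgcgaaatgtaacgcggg
The Zfp869 promoter held 4 CCAAT matches, and those of Zfp950 and Zfp101 held 2 each, that of Zfp329 held 1 TATA match, and that of Zfp367 held 3 CCAAT and 2 GC box matches. Among all 242 member promoters, 50.4% held a CCAAT match, against 34.5% of 27025 RefSeq promoters of the same length and 37.4% of the 6979 promoters of genes tested below. GC box matches stood in 41.7% of members, 33.0% of all promoters and 62.1% of tested genes. KRAB members held CCAAT in 54.2% and the GC box in 32.4%, and C2H2 members without KRAB in 46.6% and 53.4%. The ETS core stood in 16.5% of members, 7.10% of all promoters and 17.2% of tested genes. Between the 62 members that were at least 1.5-fold lower in all 4 primed libraries and the other 97 tested members with a promoter, CCAAT shares were alike (48.4% and 48.5%), while GC box shares were 35.5% and 52.6%. In the same order, the ETS core stood in 9.68% and 21.6% and the CRE in 8.06% and 2.06%, against a CRE in 2.94% of tested genes. Whether the share of KRAB genes in each group sets these differences was not tested. A match describes letters in this window and is no evidence of binding.

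The libraries held 7955 naive, 1099 untreated, 4566 anti-CTLA4, 2186 Treg-depleted and 4343 both-treatment cells, with 3825958 to 27967273 UMIs and median depths from 1683 to 5208.5 UMIs per cell. Levels are UMIs summed over the cells of a library, scaled to the total of the listed genes (CPM). They came from 3′ tags and are not ranked between genes. Cd4 stood between 239 and 731 CPM. T cell markers (3 of 8 listed) summed to 2080, 2319, 1940, 1289 and 1118 CPM in naive, untreated, anti-CTLA4, Treg-depleted and both-treatment cells. Plasma cell markers (4 of 4 listed) summed to 78.0, 69.0, 165, 434 and 231 CPM in naive, untreated, anti-CTLA4, Treg-depleted and both-treatment cells. Of 5 stromal and endothelial markers only Pecam1 was listed, at 296, 192, 131, 67.2 and 116 CPM, the library order of the summed Zfp level below. With 1 gene, RNA of such cells cannot be told apart from Pecam1 RNA of the SMARTA cells themselves. Sums of B cell markers (6 of 6 listed) ranged from 21 to 76.8 CPM, of macrophage and dendritic cell markers (7 of 8) from 237 to 377, and of NK and CD8 T cell markers (4 of 4) from 46.5 in both-treatment to 137 in naive cells. The part of these markers in the results was not tested. Both libraries from Treg-depleted mice themselves held many cells with RNA of Foxp3. A Foxp3 UMI was found in 58.7% of Treg-depleted and 38.0% of both-treatment SMARTA cells, against 0.905% to 1.46% in the other 3 libraries. Cells called cycling made up 10.8%, 18.5%, 35.2%, 49.8% and 46.0% of the naive, untreated, anti-CTLA4, Treg-depleted and both-treatment libraries. Counts and sums of the library comparisons are therefore also given for Foxp3-negative cells that were not cycling, a subset chosen after the data were seen, as are ratios of single members that changed there.

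The summed Zfp level was highest in naive cells and lowest in Treg-depleted cells. It stood at 13100 CPM in naive, 10299 in untreated, 8436 in anti-CTLA4, 6145 in Treg-depleted and 7374 in both-treatment cells. Zfp transcripts thus made up 1.31% of naive UMIs and 0.614% of Treg-depleted UMIs. Against naive cells the sum was 1.27-fold lower [1.26 to 1.29] in untreated, 1.55-fold lower [1.54 to 1.56] in anti-CTLA4, 2.13-fold lower [2.12 to 2.15] in Treg-depleted and 1.78-fold lower [1.76 to 1.79] in both-treatment cells. Brackets here and below hold exact Clopper-Pearson 95% intervals that cover counting error only.

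In primed cells the family took a smaller share of a larger number of UMIs per cell than in naive cells. How far RNA content and sequencing depth set the UMIs per cell was not tested. Mean Zfp UMIs per cell were 22.7 in naive, 35.9 in untreated, 51.7 in anti-CTLA4, 45.4 in Treg-depleted and 28.6 in both-treatment cells, of 1731, 3481, 6125, 7388 and 3883 UMIs in all. With every cell thinned to 1000 UMIs, the means were 13.1, 10.7, 9.15, 7.04 and 8.78. A lower CPM is thus a lower share of a cell's UMIs, and fewer Zfp transcripts per cell cannot be told apart from more RNA of other genes.

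**Figure D1:**
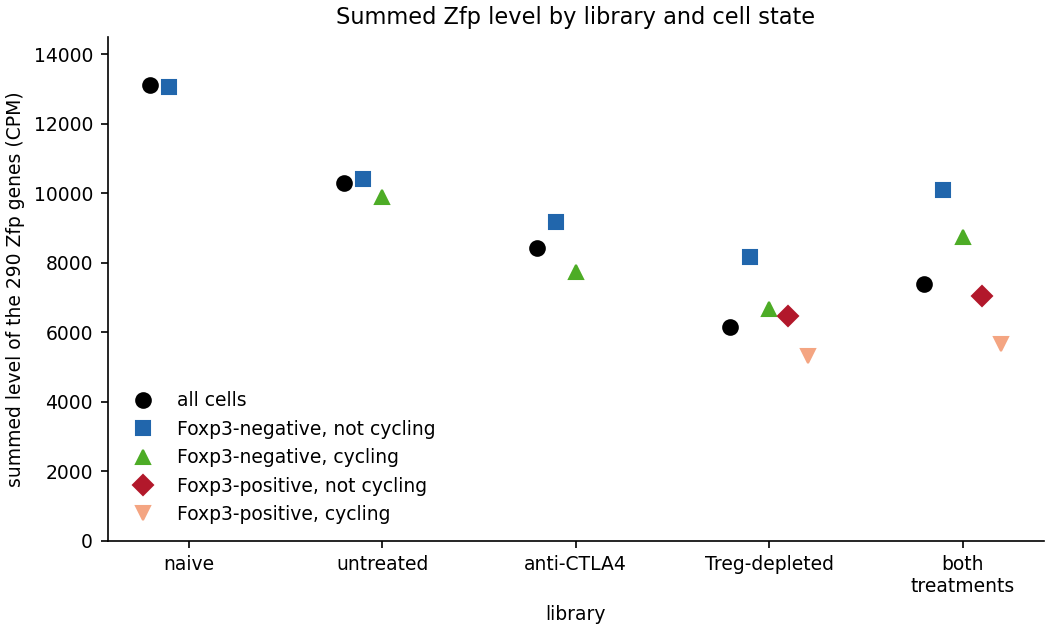
Summed level of the 290 Zfp genes in CPM (vertical axis) for each library (horizontal axis), over all cells (black circles) and within 4 cell states. Over all cells the sum goes from 13100 CPM in naive to 6145 CPM in Treg-depleted cells. In Foxp3-negative cells that were not cycling (blue squares) the 4 primed libraries lie between 8155 and 10420 CPM, all under the naive 13055 CPM.

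Single genes were compared where the mean over the 5 libraries was at least 10 CPM, which 189 members and 8736 genes in all passed. Of the 101 members below it, Zfp606 (9.81 CPM) and Zfp715 (9.76 CPM) were nearest, and Zfp764 (10.01 CPM) and Zfp747 (10.2 CPM) were the lowest members that passed. Of the 189, 133 reached 10 CPM in every library and 1 only in naive cells. A gene counts as lower or higher at a ratio of at least 1.5-fold.

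In untreated primed cells 66 of 189 members were lower than in naive cells and 7 were higher. Of all genes tested, 17.3% were lower and 16.2% higher. The members' median log2 ratio was -0.43, against -0.03 for all genes tested. In anti-CTLA4 cells 104 were lower and 5 higher (all genes 27.5% and 19.5%), with medians of -0.62 and -0.11. In Treg-depleted cells 148 were lower and 3 higher (all genes 37.8% and 19.5%), with medians of -1.19 and -0.29. In both-treatment cells 137 were lower and 6 higher (all genes 32.1% and 18.8%), with medians of -0.94 and -0.22. These 4 comparisons share the naive library.

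TMM scaling, which centres the bulk of genes, moved log2 ratios to naive up by 0.02, 0.10, 0.28 and 0.19 in the same order. It left 64, 89, 129 and 115 members lower and 7, 7, 5 and 6 higher, while 16.4%, 23.5%, 27.7% and 24.1% of all genes were then lower and 16.8%, 23.0%, 27.6% and 24.2% higher. With cells holding markers of another cell type left out, 68, 101, 146 and 137 members were lower.

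**Figure D2:**
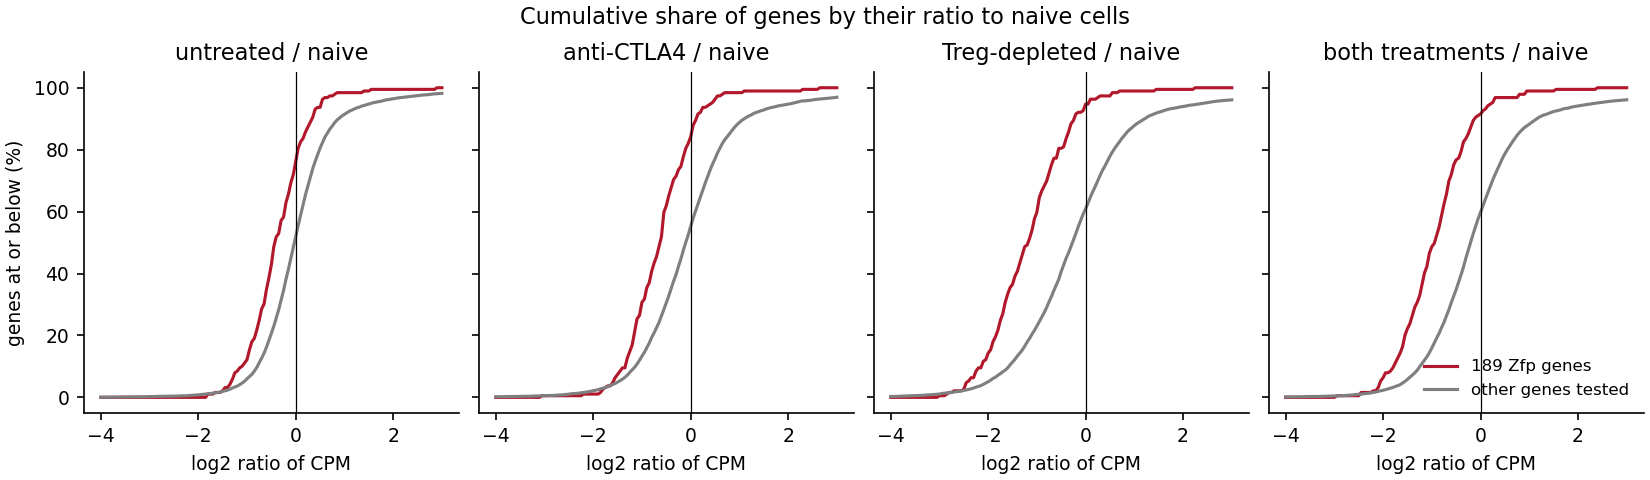
Cumulative share of genes (vertical axis, %) at or below each log2 ratio of CPM to naive cells (horizontal axis), for 189 Zfp genes (red) and the other genes tested (grey), 1 panel per primed library. The Zfp curve lies to the left over all but the lowest tail of each panel, with a median of -0.43 against -0.03 for other genes in untreated cells and -1.19 against -0.27 in Treg-depleted cells.

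The shift was also read against other genes of the same mean level. Of the other genes, weighted to the members' spread over 4 ranges of mean CPM, 20.1% were lower in untreated cells, against 34.9% of members. The matching shares were 29.8% against 55% in anti-CTLA4, 42.3% against 78.3% in Treg-depleted and 35.4% against 72.5% in both-treatment cells.

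Within ranges, the gap was present at low and middle levels and smaller at the top. Of the 98 members between 10 and 25 CPM, the median log2 ratio of untreated to naive was -0.48, against -0.09 for other genes. It was -0.26 against -0.07 for the 44 members from 25 to 50 CPM and -0.52 against -0.07 for the 33 from 50 to 100 CPM. The 14 members at 100 CPM or more had a median of 0.01, against 0.07. In Treg-depleted cells 84.7%, 70.5%, 84.8% and 42.9% of members in these ranges were lower, against 47.4%, 40.7%, 35.6% and 27.3% of other genes. The top range holds all 3 CCCH genes, Zfp706, Zfp91 and Zfp207.

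**Figure D3:**
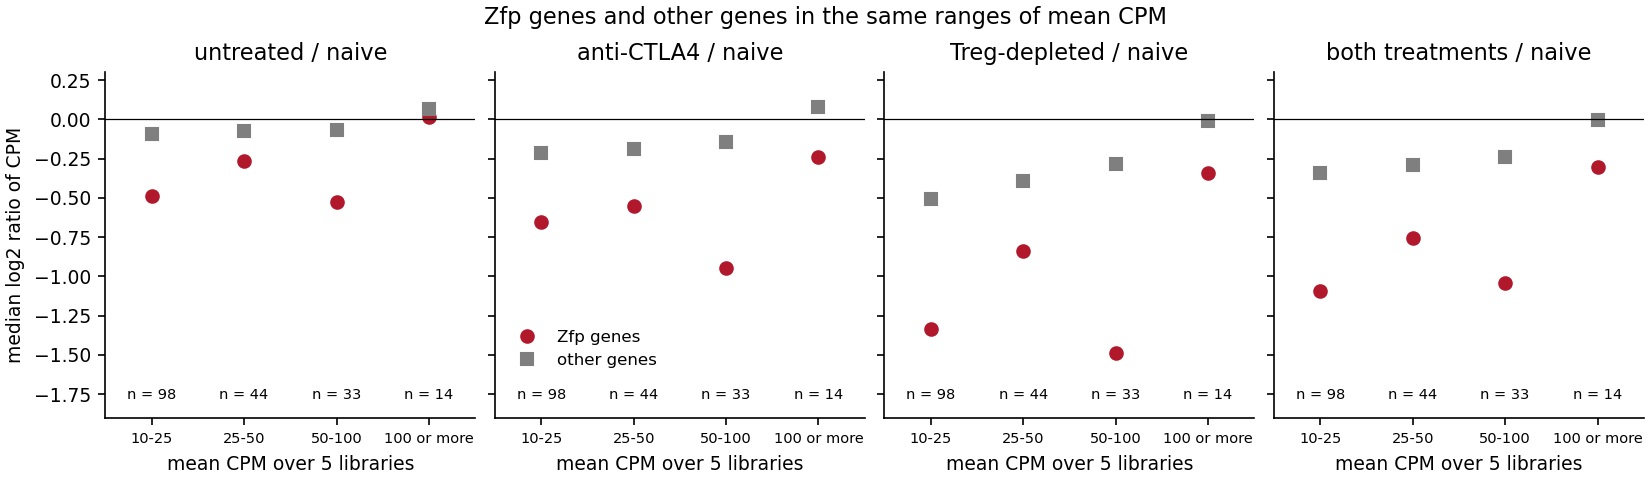
Median log2 ratio of CPM to naive cells (vertical axis) for Zfp genes (red circles, n printed) and other genes (grey squares) in 4 ranges of mean CPM (horizontal axis), 1 panel per primed library. In Treg-depleted cells the members' medians are -1.34, -0.84, -1.49 and -0.34, against -0.51, -0.39, -0.29 and -0.01 for other genes.

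Naive cells had the highest level of 140 of the 189 members (74.1%, against 42.5% of all genes), and Treg-depleted cells the lowest of 143 (75.7%, against 39.9%). The full order naive, untreated, anti-CTLA4, both treatments, Treg-depleted, from high to low, held for 81 members (42.9%, against 16.7%). A level at least 1.5-fold lower in all 4 primed libraries was found for 66 members (34.9%, against 13.4%), and at least 1.5-fold higher in all 4 for 2, Zfp367 and Zfp52 (1.06%, against 9.56%).

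Of the 66 members lower in untreated cells, 45 were KRAB genes. In untreated cells 45 of 93 tested KRAB genes were lower than in naive cells (median log2 -0.58) and 2 were higher. Among C2H2 genes without KRAB 20 of 84 were lower (median -0.24) and 5 were higher. In Treg-depleted cells the counts were 79 of 93 (median -1.38) and 63 of 84 (median -1.05). All genes were lower in 17.3% in untreated and 37.8% in Treg-depleted cells. The summed KRAB level went from 4385 CPM in naive to 2947, 2499, 1683 and 1935 in untreated, anti-CTLA4, Treg-depleted and both-treatment cells. The C2H2 sum without KRAB went from 6447 to 4967, 4123, 3113 and 3684. Genes with fewer than 2 matched fingers had a nearly level sum of 859, 852, 810, 754 and 781 CPM.

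Mean levels differed between the classes, with medians over tested genes of 19.7 CPM for KRAB and 37.5 CPM for C2H2 genes without it. Within 10 to 25 CPM, 56 of 66 KRAB genes (median -1.44) and 24 of 29 C2H2 genes (median -1.0) were lower in Treg-depleted than in naive cells. At 50 CPM or more the counts were 9 of 9 and 22 of 30. KRAB genes with at least 12 fingers had a median of -1.61 (40 of 44 lower) and those with fewer a median of -1.19 (39 of 49 lower). Members with a Zfp neighbour within 100 kb (82 of 101 lower) and without (66 of 88 lower) gave similar shares. Among members sharing over 25% of their 3′ words 7 of 13 were lower, against 141 of 176 of the rest. On chromosome 7, 30 of 38 tested members were lower, on chromosome 17, 21 of 29 and on chromosome 13, 14 of 18, near the share of all members. In this comparison 78.3% of all members, 37.8% of all genes and 42.3% of other genes at the same levels were lower.

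By the interval bound nearest to 1, the member furthest below naive in untreated and anti-CTLA4 cells was Zfp652, a C2H2 repressor at chr11:95712673-95835115 (ENSMUSG00000075595.9, GRCm38). Its level was 148 CPM in naive, 45.5 in untreated, 17.4 in anti-CTLA4, 25.4 in Treg-depleted and 38.1 in both-treatment cells. The naive level was thus 3.25-fold [2.78 to 3.81], 8.48-fold [7.68 to 9.39], 5.81-fold [5.22 to 6.47] and 3.88-fold [3.54 to 4.24] above the primed ones. Within the Foxp3-negative, non-cycling subset, Zfp652 with both treatments was at 0.475 of naive. Zfp652 was lowest with anti-CTLA4 alone, unlike most members, which were lowest in Treg-depleted cells.

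Zfp869 stood at 185, 74.5, 53.5, 35.5 and 52.8 CPM in naive, untreated, anti-CTLA4, Treg-depleted and both-treatment cells, a level in untreated cells 2.48-fold [2.19 to 2.81] below naive. Zfp398, in the same library order, stood at 146, 52.5, 49.9, 26.9 and 37.5 CPM (2.77-fold lower in untreated cells [2.40 to 3.22]), and Zfp329 at 135, 47.8, 43.6, 27.8 and 29.1 CPM (2.82-fold [2.42 to 3.30]). Zfp397 and Zfp950 had nearly the same course, from 132 and 133 CPM in naive cells to 28.0 and 27.2 CPM in Treg-depleted cells. The Treg-depleted ratio to naive in the Foxp3-negative, non-cycling subset was 0.353 for Zfp329, 0.326 for Zfp397 and 0.323 for Zfp950. Each of these 5 genes had its highest level in naive and its lowest in Treg-depleted cells.

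Zfp512 went from 106 CPM in naive to 44.7 in untreated and 30.8 in Treg-depleted cells, and Zfp146 from 73.9 to 28.8 and 13.2. Zfp874b stood at 38.1 CPM in naive and 6.87 to 10.7 CPM in the 4 primed libraries. Zfp101 was 36.7 CPM in naive and 10.5 to 16.1 CPM in primed cells, with no further step in Treg-depleted cells (11.5 CPM). Its untreated level was 3.51-fold lower than naive [2.54 to 4.97]. For Zfp146, Zfp874b and Zfp101 the ratio of Treg-depleted to naive was 0.355, 0.297 and 0.141 in the Foxp3-negative, non-cycling subset.

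Zfp292, which encodes a protein of 2698 residues, was lower in all 4 primed libraries. It stood at 440, 256, 186, 151 and 193 CPM in naive, untreated, anti-CTLA4, Treg-depleted and both-treatment cells, and its ratio of Treg-depleted to naive was 2.92-fold lower [2.79 to 3.06]. Zfp148, a factor that binds GC-rich promoter elements, stood at 210, 128, 111, 75.7 and 91.3 CPM. Zfp445, which helps to maintain methylation at imprinted loci, stood at 128, 93.0, 67.7, 41.7 and 52.9 CPM. Zfp292 in the Foxp3-negative, non-cycling subset was at 0.671 of naive with both treatments, just short of 1.5-fold. Zfp148 and Zfp445 followed the common order of the libraries, and in Zfp292 the anti-CTLA4 and both-treatment levels differed by little.

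Other members of known role followed it less closely or not at all. Zfp809, which recruits Trim28 to retroviral DNA in stem cells, stood at 24.9 CPM in naive and 13.1 to 15.8 CPM in primed cells. Zfp281, a regulator of pluripotency genes, stood at 129 CPM in naive, 99.3 in untreated and 45.8 to 64.9 CPM in the treated libraries. Zfp800 and Zfp131 went from 132 and 84.1 CPM in naive to 63.5 and 43.5 CPM in Treg-depleted cells. Zfp800 and Zfp131 in the Foxp3-negative, non-cycling subset were at 0.696 and 0.683 of naive in Treg-depleted cells, in place of 0.481 and 0.517, and so short of 1.5-fold. With both treatments Zfp800 (0.890), Zfp131 (0.904), Zfp281 (0.681) and Zfp809 (0.771) were short of it as well.

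Several members with general cell functions differed less between libraries. Zfp706 stood between 322 and 353 CPM and Zfp91, a ubiquitin ligase linked to NF-kB signalling, between 264 and 295 CPM in the 5 libraries, though both share 3′ words with other genes. Zfp207, a spindle assembly factor, stood at 303 CPM in naive and 223 to 247 CPM in primed cells. Zfp598, a ubiquitin ligase that senses collided ribosomes, went from 36.2 CPM in naive to between 24.7 and 28.5 CPM, and Zfp335, needed for T cell maturation, stood between 13.3 and 17 CPM. Zfp106 and Zfp217 stayed between 103 and 132 CPM and between 36.0 and 60.1 CPM. None of these 7 was 1.5-fold lower in untreated cells, and only Zfp217 passed that ratio in Treg-depleted cells (0.619 of naive). In Foxp3-negative cells that were not cycling, Zfp217 was at 1.00 of naive in the Treg-depleted library [0.825 to 1.20] and Zfp598 at 0.657 [0.488 to 0.869].

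Zfp821 was the member furthest above naive in untreated cells. Its level was 7.34 CPM in naive, 54.1 in untreated and 44.8 in anti-CTLA4 cells, but 10.6 in Treg-depleted and 13.8 in both-treatment cells. The untreated level was 7.37-fold above naive [5.79 to 9.45], and the Treg-depleted level 5.08-fold below untreated [4.13 to 6.26]. In Foxp3-negative cells that were not cycling, the Treg-depleted level of Zfp821 was 0.399 of the untreated one, and the Treg-depleted and both-treatment levels were 3.03 and 3.42 times naive.

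Zfp367 and Zfp52 were the 2 members at least 1.5-fold higher in all 4 primed libraries. Zfp367 stood at 5.16 CPM in naive, 14.6 in untreated and 23.9 to 26.6 CPM in the treated libraries, and Zfp52, a KRAB gene, at 17.6 CPM in naive and 37.2 to 51.1 CPM in primed cells. In untreated cells their ratios to naive were 2.84 [1.96 to 4.09] and 2.59 [2.12 to 3.16]. In Foxp3-negative cells that were not cycling, Zfp367 was at 1.65 [0.957 to 2.74], 3.53, 2.14 and 3.17 times naive in untreated, anti-CTLA4, Treg-depleted and both-treatment cells, and Zfp52 at 2.64, 2.39, 3.39 and 2.87 times. Zfp362 (1.71-fold), Zfp580 (1.76-fold), Zfp788 (1.62-fold) and Zfp384 (1.51-fold) were the other members listed among the highest in untreated cells that passed 1.5-fold, while Zfp622, related to a yeast ribosome maturation factor, and Zfp771 had ratios of 1.42 and 1.44. Zfp362 and Zfp788 were lower than naive in Treg-depleted cells, at 24.3 against 32.5 CPM and 6.93 against 14.5 CPM. Zfp788 was at 1.15 times naive in the Treg-depleted cells of that subset, and Zfp362 and Zfp580 at 2.40 and 3.2 times with both treatments. Zfp593, related to a yeast factor of ribosome export, stood at 77.8, 102, 107, 125 and 131 CPM in naive, untreated, anti-CTLA4, Treg-depleted and both-treatment cells, and in that subset its Treg-depleted and both-treatment ratios to naive were 1.39 and 1.25, short of 1.5-fold.

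**Figure D4:**
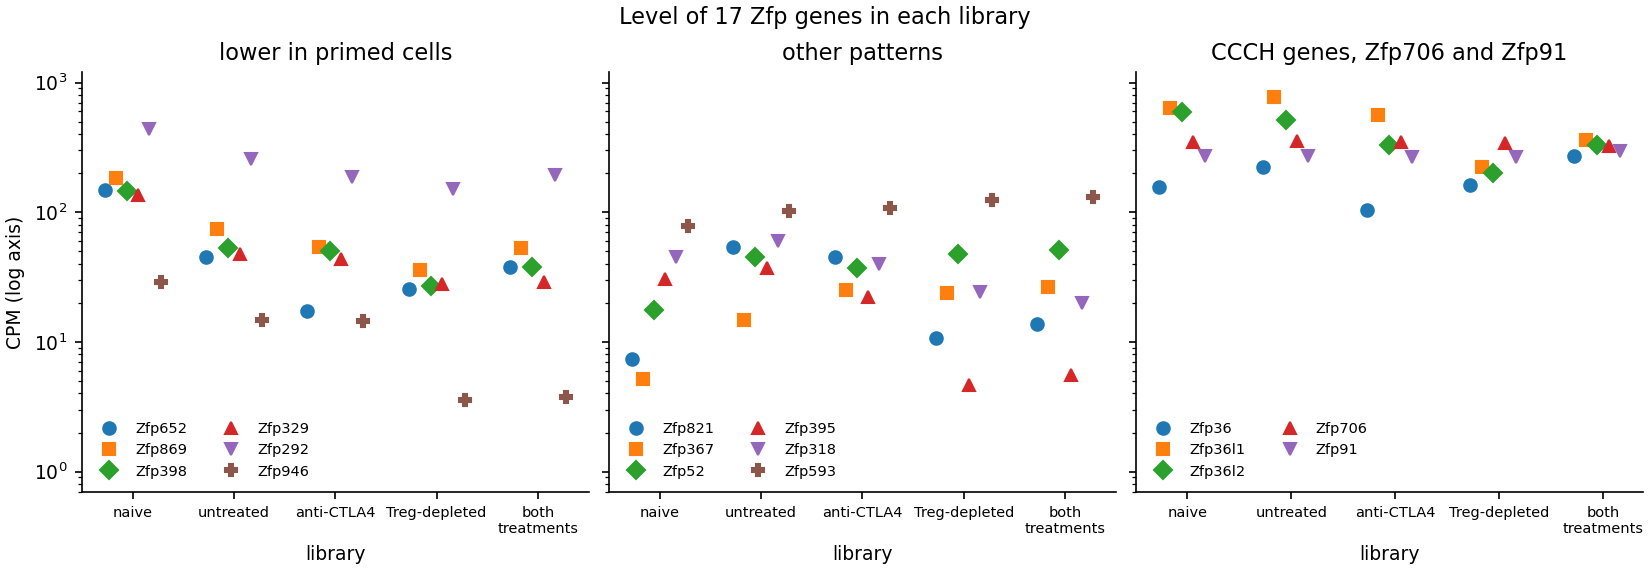
CPM on a log axis (vertical) of 17 Zfp genes in each library (horizontal), grouped into genes lower in primed cells, genes with other patterns, and the CCCH genes with Zfp706 and Zfp91. Zfp652 goes from 148 to 17.4 CPM between naive and anti-CTLA4 cells, Zfp821 peaks at 54.1 CPM in untreated cells, and Zfp706 stays between 322 and 353 CPM.

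The 3 mRNA decay factors did not follow the DNA-binding members in untreated cells. Zfp36 (tristetraprolin, chr7:28376784-28380253) stood at 157 CPM in naive, 224 in untreated, 104 in anti-CTLA4, 163 in Treg-depleted and 271 in both-treatment cells. Zfp36l1 (chr12:80107754-80113013) stood at 636, 778, 560, 222 and 362 CPM and Zfp36l2 (chr17:84183931-84187947) at 590, 516, 327, 200 and 333 CPM. Their summed level was 1383 CPM in naive and 1518 in untreated cells, and 992, 586 and 966 CPM in anti-CTLA4, Treg-depleted and both-treatment cells.

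Zfp36l1 and Zfp36l2 were 2.86-fold [2.75 to 2.98] and 2.94-fold [2.83 to 3.07] lower in Treg-depleted than in naive cells, where Zfp36 had a ratio of 1.04 [0.980 to 1.10]. Zfp36 was 2.16-fold lower with anti-CTLA4 than in untreated cells [2.00 to 2.33] and 2.61-fold higher with both treatments than with anti-CTLA4 alone [2.49 to 2.74]. In Foxp3-negative cells that were not cycling, Zfp36l1 was at 0.721 of naive and Zfp36l2 at 0.523 in the Treg-depleted library, and at 0.929 and 1.05 with both treatments. There Zfp36 was at 1.54 and 2.86 times naive. Of the 18 listed genes for AU-rich mRNA decay, which include these 3, 2 were lower and 0 higher in untreated cells, and 10 lower and 1 higher in Treg-depleted cells. Of all genes, 17.3% and 37.8% were lower in these comparisons.

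Between anti-CTLA4 and untreated cells, 21 members were lower and 2 higher (all genes 8.54% and 7.11%), with medians of -0.26 and -0.09. A ratio below 1 was found for 156 of the 189 members. The members' share of 11.1% lower lay near the 10.3% of other genes at the same levels, while 1.06% of members and 8.75% of those genes were higher. With TMM scaling 11 members were lower and 2 higher (all genes 5.76% and 8.54%). Zfp652 (2.61-fold [2.18 to 3.11]), Zfp467 (2.41-fold [2.03 to 2.87]), Zfp36 and Zfp281 (2.16-fold [1.92 to 2.43]) were the members furthest below untreated. Zfp367 (1.71-fold [1.30 to 2.29]) and Zfp101 (1.54-fold [1.11 to 2.18]) were the 2 higher ones. Restricted to Foxp3-negative cells that were not cycling, Zfp101 was at 1.45 times untreated, short of 1.5-fold.

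The shift was larger between the Treg-depleted and untreated libraries, which also differed in Foxp3-positive (58.7% and 1.46%) and cycling cells (49.8% and 18.5%). In Treg-depleted cells 126 members were lower than in untreated cells and 1 was higher (all genes 32.2% and 12.1%), with medians of -0.74 and -0.28. Other genes at the same levels were lower in 36.8%, against 66.7% of members. TMM scaling, which moved ratios up by 0.31, left 73 lower and 2 higher (all genes 18.1% and 21.4%). Zfp395 went from 37.4 CPM in untreated to 4.64 in Treg-depleted cells (8.05-fold lower [6.05 to 10.8]) and Zfp467 from 46.3 to 9.04 CPM (5.12-fold [4.09 to 6.42]). Zfp36l1 was 3.5-fold lower [3.33 to 3.68]. The 1 member over 1.5-fold higher was Zfp367 (1.63-fold [1.23 to 2.2]). With only Foxp3-negative, non-cycling cells, Zfp367 was at 1.30 times untreated [0.693 to 2.45], short of 1.5-fold, and Zfp36l1 was at 0.554.

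With both treatments, 35 members were lower and 3 higher than with anti-CTLA4 alone (all genes 11.6% and 8.65%), with medians of -0.34 and -0.09. Other genes at the same levels were lower in 13.8%, against 18.5% of members. Zfp395 (4.05-fold lower [3.25 to 5.09]), Zfp946 (3.88-fold [2.97 to 5.14]), Zfp821 (3.24-fold [2.82 to 3.75]) and Zfp280b (2.92-fold [2.42 to 3.53]) led the lower members. Zfp36, Zfp652 (2.19-fold [1.94 to 2.47]) and Zfp580 (1.61-fold [1.39 to 1.87]) were the 3 higher ones. Zfp395 was at 0.451, Zfp946 at 0.403 and Zfp821 at 0.499 of anti-CTLA4 in the Foxp3-negative, non-cycling subset.

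Against Treg-depleted cells, 0 members were lower and 21 higher with both treatments (all genes 1.25% and 7.58%), with medians of 0.21 and 0.06. The share higher, 11.1%, lay near the 10.5% of other genes at the same levels. Zfp219 was 2.30-fold higher [1.90 to 2.79], and the 3 CCCH genes were 1.63-fold to 1.67-fold higher. Furthest the other way were Zfp53 (1.39-fold lower [1.24 to 1.55]), Zfp954 (1.35-fold [1.12 to 1.64]) and Zfp318 (1.23-fold [1.06 to 1.43]). Zfp36l1 was at 1.29 times Treg-depleted, short of 1.5-fold, and Zfp318 at 0.605 in the Foxp3-negative, non-cycling subset.

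Cell state moved with these differences. In the naive library, cells called cycling had 7.47 CPM of the division marker Mki67, against 68.7 CPM in the whole untreated library. In them 2 members were lower and 2 higher (all genes 2.83% and 1.83%). In untreated cells 21 members were lower and 6 higher in cycling cells (all genes 7.03% and 6.64%). In anti-CTLA4 cells 14 were lower and 2 higher (all genes 8.52% and 6.77%). The members' shares lower, 11.1% and 7.41%, were at or under those of other genes at the same levels, 11.5% and 10.9%.

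In the Treg-depleted library 59 members were lower and 3 higher in cycling cells (all genes 21.8% and 11.5%), and with both treatments 80 were lower and 2 higher (all genes 24.5% and 9.93%). The members' shares of 31.2% and 42.3% compare with 24.7% and 28.2% of other genes at the same levels. TMM scaling left 33 and 38 lower (all genes 12.9% and 13.3%). Cycling cells were deeper, with 10267 against 4741 UMIs per Treg-depleted cell, and held 57.8 against 34.3 Zfp UMIs each. More of the Foxp3-positive than of the Foxp3-negative cells were cycling, 58.4% against 37.4% in the Treg-depleted and 61.2% against 35.6% in the both-treatment library. With Foxp3-positive cells left out, 22 members in place of 80 were lower in cycling cells with both treatments (11.6%, against 4.68% of all genes). In the Treg-depleted library 48 in place of 59 were lower (25.4%, against 15.0% of all genes).

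Zfp367 was higher in cycling cells of all 4 primed libraries, by 4.43-fold [2.53 to 7.85] in untreated, 2.09-fold [1.78 to 2.46] in anti-CTLA4, 2.67-fold [2.01 to 3.61] in Treg-depleted and 2.32-fold [1.83 to 2.98] in both-treatment cells. Zfp101 was higher in cycling anti-CTLA4 (1.80-fold [1.48 to 2.2]) and Treg-depleted cells (2.5-fold [1.67 to 3.86]). Zfp36l1 was 2.35-fold lower [2.2 to 2.51] in cycling Treg-depleted and 2.12-fold lower [2.01 to 2.23] in cycling both-treatment cells, and Zfp579 3.98-fold lower [2.82 to 5.67] in the former. Zfp467 was lower in cycling anti-CTLA4 cells (2.08-fold [1.73 to 2.51]) and with both treatments (2.78-fold [2.01 to 3.87]). Zfp593 was 1.58-fold lower [1.20 to 2.11] in cycling untreated cells but 1.18-fold higher [1.08 to 1.30] in cycling both-treatment cells.

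Foxp3, the lineage factor of regulatory T cells, divided the Treg-depleted libraries further. In the Treg-depleted library 72 members were lower and 2 higher in Foxp3-positive than in Foxp3-negative cells (all genes 20.1% and 7.68%). With both treatments 120 were lower and 2 higher (all genes 32.3% and 12.1%). The shares of 38.1% and 63.5% compare with 24.1% and 36.6% of other genes at the same levels. TMM scaling left 39 lower and 6 higher in the former (all genes 13.7% and 12.1%) and 78 lower and 5 higher in the latter (all genes 21% and 21.4%).

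A Foxp3 UMI is found more readily in deep cells. When the call was made after thinning to 1000 UMIs, 17 and 50 members were lower in place of 72 and 120. These are 8.99% and 26.5% of members, against 7.54% and 12.9% of all genes tested under the same call. Cells that lose their Foxp3 UMIs on thinning are called Foxp3-negative, and this mixing can by itself narrow the contrast. How far depth set the counts of 72 and 120 was therefore not tested by this call. Zfp UMIs per cell were 49.5 in Foxp3-positive and 39.6 in Foxp3-negative Treg-depleted cells, and 38.0 and 22.9 with both treatments.

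Zfp318, known in B cells for its part in IgD expression, was 4.28-fold lower [3.47 to 5.30] in Foxp3-positive Treg-depleted cells and 5.14-fold lower [3.98 to 6.68] in Foxp3-positive both-treatment cells. It stood at 12.4 against 52.9 CPM and 7.74 against 39.7 CPM. Over whole libraries Zfp318 was at 0.538 of naive in the Treg-depleted library, but at 1.63 times naive in its Foxp3-negative cells that were not cycling. Zfp219 with both treatments stood at 8.50 CPM in Foxp3-positive and 44.6 CPM in Foxp3-negative cells (5.24-fold lower [4.12 to 6.73]). Zfp36l2 was 3.39-fold lower [3.21 to 3.59] in the Foxp3-positive both-treatment cells and 1.67-fold lower [1.56 to 1.79] in the Treg-depleted ones. Zfp593 was higher in Foxp3-positive cells of both libraries, by 1.18-fold [1.07 to 1.30] and 1.5-fold [1.37 to 1.65], though with Foxp3 called after thinning the Treg-depleted ratio was 0.934.

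**Figure D5:**
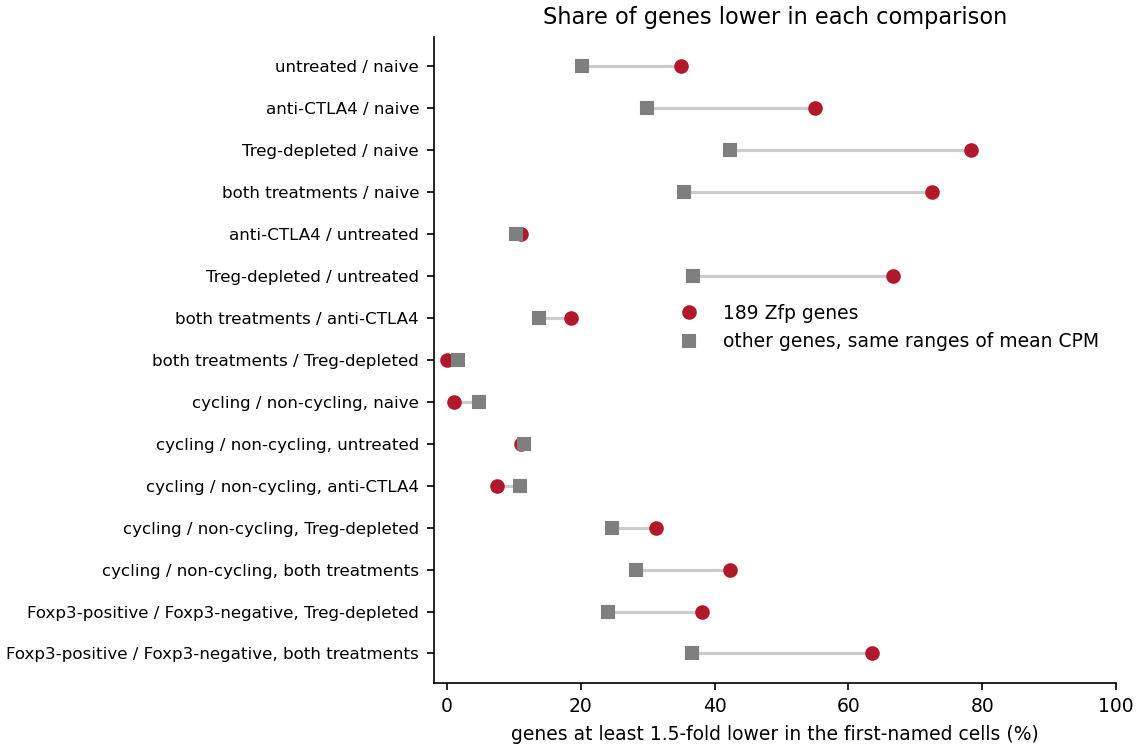
Share of genes at least 1.5-fold lower in the first-named cells (horizontal axis, %) in 15 comparisons (vertical axis), for 189 Zfp genes (red circles) and other genes in the same ranges of mean CPM (grey squares). The gap is widest for both treatments against naive cells (72.5% against 35.4%) and small between anti-CTLA4 and untreated cells (11.1% against 10.3%).

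Among Foxp3-negative cells that were not cycling, the summed Zfp level was 13055 CPM in naive, 10420 in untreated, 9162 in anti-CTLA4, 8155 in Treg-depleted and 10101 in both-treatment cells. The primed libraries remained under naive, and the both-treatment library moved from next to lowest to close to untreated. Foxp3-negative cycling cells stood at 9881, 7731, 6681 and 8737 CPM in the untreated, anti-CTLA4, Treg-depleted and both-treatment libraries. Foxp3-positive cells stood lower, at 6464 and 7056 CPM when not cycling and 5320 and 5655 CPM when cycling, in the Treg-depleted and both-treatment libraries.

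In these Foxp3-negative, non-cycling cells 66 members were lower and 11 higher in untreated than in naive cells (all genes 17.3% and 15.5%). In anti-CTLA4 cells 88 were lower and 7 higher (all genes 24.3% and 19.1%), in Treg-depleted cells 111 and 7 (all genes 29.4% and 17.5%), and in both-treatment cells 83 and 9 (all genes 19.6% and 16.7%). Other genes at the same levels were lower in 20.5%, 26.9%, 33.5% and 23.7%, against 34.9%, 46.6%, 58.7% and 43.9% of members. Of the members lower than naive over whole libraries, 62 of 66, 87 of 104, 106 of 148 and 82 of 137 were lower here as well, and 51 of the 66 that were lower in all 4 primed libraries. The gap to naive cells was thus about as large in untreated cells as over the whole library, and smaller than there in the 3 treated libraries.

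Between primed libraries fewer members were lower in these cells than over whole libraries, except for both treatments against Treg-depleted cells. Against untreated cells 11 members were lower and 1 higher in anti-CTLA4 cells (all genes 4.82% and 5.33%), and 52 lower and 1 higher in Treg-depleted cells (all genes 15.4% and 7.21%), where 27.5% of members compare with 20.6% of other genes at the same levels. Against anti-CTLA4 alone 12 were lower and 16 higher with both treatments (all genes 10.6% and 12.4%). Against Treg-depleted cells 5 were lower and 36 higher (all genes 5.35% and 14.7%), a share higher of 19.0% against 19.4% of other genes at the same levels. Zfp395 was at 0.237 and Zfp467 at 0.183 of untreated in Treg-depleted cells of this state. How far cell state, depth and treatment each carry the library differences was not tested.

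Among cofactors of KRAB proteins, about as many genes were higher as lower. Smaller shares than among all genes were lower (all genes 17.3% and 37.8%) and also higher (all genes 16.2% and 19.5%). These shares were not matched for mean level. Of 30 tested partners (31 of 32 listed), 3 were lower and 2 higher in untreated than in naive cells (median log2 0.08), and 6 lower and 5 higher in Treg-depleted cells (median -0.01). Trim28, which KRAB boxes bind, stood at 109 CPM in naive, 134 in untreated and 142 in Treg-depleted cells, and Setdb1 at 40.7 CPM in naive and 38.2 in Treg-depleted cells. Chd3, a helicase of the NuRD complex (3.34-fold lower), and Atf7ip, a partner of Setdb1 (3.49-fold lower), were the lowest in Treg-depleted cells, with Trim33, Morc3, Ehmt1 and Trim24. The 5 higher ones were Uhrf1 and Dnmt1, which copy DNA methylation at replication, with Cbx5, Ehmt2 and Rbbp7. Uhrf1 stood at 2.11 CPM in naive and 146 CPM in Treg-depleted cells.

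Zinc finger genes with other names were partly similar, read against the 17.3% of all genes lower in untreated and 37.8% lower in Treg-depleted than in naive cells. Of 39 tested Zbtb, Zkscan and Zscan genes, 14 were lower and 4 higher in untreated cells (35.9% lower, median -0.40), and 33 lower and 2 higher in Treg-depleted cells (84.6% lower, median -1.01). Of 17 Klf, Sp and Ikzf genes, 9 and 11 were lower and 4 and 2 higher in the same 2 comparisons. Of 15 CCCH genes named Zc3h, 1 and 6 were lower and 2 and 1 higher, and their shares lower of 6.67% and 40% lay below and near those of all genes. Of 5 activation genes, 5 were higher in untreated cells, where 16.2% of all genes were.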

How the data were processed

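The RNA of single cells was read with 10x 3′ tags and unique molecular identifiers (UMIs) in 5 libraries, 1 per group. The deposited files hold raw UMI counts per gene and cell, made with bcl2fastq 2.20, Cell Ranger 6.0.0 and genome mm10, per the submitters' processing notes, which also name R 4.1.1 and Seurat 4.0.4. Only genes listed in all 5 tables were used. None of the 20149 cells was removed: each had 200 genes or more, and mitochondrial UMIs made up 10% or less. No doublet caller was run. Cells with UMIs of 2 markers of another cell type were left out in an alternative. From 0 to 10 cell barcodes were shared by a pair of libraries.

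Counts were summed over cells and divided by library totals, with Python 3.11.15, numpy 2.4.6, scipy 1.17.1 and pandas 2.3.3. TMM factors came from edgeR 4.0.16 in R 4.3.3. A gene at 0 UMIs in a group was set to 3 UMIs. Cycling cells had UMIs of at least 2 of 30 G2M genes after thinning to 1000 UMIs (shallower cells left out). Foxp3-positive cells had at least 1 UMI at full depth. Named members were the 10 highest and 10 lowest in untreated against naive cells and the 4 highest and 4 lowest elsewhere, by the interval bound nearest to 1, with a fixed list of members of known role (Zfp683, on that list, was not analysed here). Other genes of the same mean level were taken in ranges of 10 to 25, 25 to 50, 50 to 100 and 100 or more mean CPM. The scripts were tested on simulated data. Members and lists were chosen with earlier results of these data known.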

Additional observations from a re-analysis of the deposited data

Results flagged for a closer look

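Listed here are members whose level with anti-CTLA4 differed in opposite ways without and with Treg depletion, by at least 1.5-fold each. Values are the ratio of anti-CTLA4 to untreated and then of both treatments to Treg-depleted cells. The share of all genes that passes the same cut both ways is not given, so the list cannot be set against all genes. The difference between the 2 ratios was not tested, since each group is 1 library. Zfp36 had ratios of 0.463 and 1.67, and Zfp36l2, its relative among the mRNA decay factors, 0.635 and 1.66. Zfp219 had ratios of 0.649 and 2.30. Zfp362 gave 0.629 and 1.61, Zfp846 0.639 and 1.66, Zfp81 0.648 and 1.55, and Zfp74 0.566 and 1.5. The summed Zfp CPM had ratios of 0.819 and 1.20. A ratio below 1 in the former and above 1 in the latter was found for 137 of 189 members and for 3982 of all 8736 genes tested. A larger share of the Treg-depleted than of the both-treatment cells was called Foxp3-positive (58.7% and 38.0%), at median depths of 5208.5 and 2468 UMIs. The 4 Treg markers summed to 3186 and 3677 CPM in these libraries. In Foxp3-negative cells that were not cycling, the ratios were 0.520 and 1.85 for Zfp36, 0.685 and 2.01 for Zfp36l2 (the former short of 1.5-fold), 0.743 (short of it as well) and 2.75 for Zfp219, 0.632 and 2.18 for Zfp362, 0.775 (short) and 2.00 for Zfp846, 0.594 and 2.15 for Zfp81, and 0.565 and 1.34 (short) for Zfp74. The summed Zfp CPM had 0.879 and 1.24 there.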

How the results depend on the processing

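No paired analysis was possible because each group is 1 library, and for the same reason no replicate could be left out. Ratios are against the second-named cells, and counts are of members at least 1.5-fold lower. Of 148 alternative medians of the members' log2 ratio, 4 turned direction: 2 for both treatments against anti-CTLA4, and 2 for cycling against non-cycling untreated cells, where -0.02 became 0.012 with TMM factors and 0.017 with averaged CPM of single cells.

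A minimum of 25 CPM tests fewer genes, 91 of them members. Against naive it gave 30, 49, 65 and 59 lower members for untreated, anti-CTLA4, Treg-depleted and both treatments. These are 33.0%, 53.8%, 71.4% and 64.8% of members, against 15.1%, 25.6%, 34.3% and 29.4% of all genes. It gave 8 for anti-CTLA4 and 57 for Treg-depleted against untreated (all genes 7.18% and 28.4%). For both treatments against anti-CTLA4 it gave 8 (all genes 9.73%). It gave 0, 7, 6, 23 and 38 for cycling cells of the 5 libraries and 33 and 58 for Foxp3-positive cells. No minimum tests more genes, with 283 to 290 members compared. Against naive it gave 103 (untreated) and 208 (both treatments), with 20.6% and 33.6% of all genes lower. Against untreated it gave 36 and 192 (all genes 13.4% and 35.2%). It gave 75 and 4 for both treatments against anti-CTLA4 and Treg-depleted (all genes 16.5% and 4.27%). For cycling cells it gave 12, 46, 33, 102 and 130 (all genes 6.08%, 10.9%, 14.3%, 27.1% and 29.2%). For Foxp3-positive cells it gave 126 and 182 (all genes 26.8% and 37.1%).

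TMM factors gave 11 (anti-CTLA4) and 73 (Treg-depleted) against untreated, 7, 33 and 38 for cycling anti-CTLA4, Treg-depleted and both-treatment cells, and 39 and 78 for Foxp3-positive cells. With both treatments they put Zfp106 at 1.01 and Zfp706 at 1.06 of naive. Averaging the CPM of single cells gave 18 and 1 for both treatments against anti-CTLA4 and Treg-depleted (all genes 9.20% and 2.68%). It gave 8 and 28 for cycling anti-CTLA4 and both-treatment cells (all genes 4.56% and 8.41%). It put Zfp318 at 1.05 and Zfp36l1 at 1.00 of naive in anti-CTLA4 cells, and Zfp217 at 1.09 of naive and 1.12 of anti-CTLA4 with both treatments.

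Leaving out G2M-positive cells gave 11 for anti-CTLA4 against untreated (all genes 4.83%). It gave 21 and 3 for both treatments against anti-CTLA4 and Treg-depleted (all genes 9.84% and 2.82%). It put Zfp318 at 1.11 and Zfp36l1 at 1.06 of naive in anti-CTLA4 cells, Zfp36 at 1.02 of untreated in Treg-depleted cells, and Foxp3-positive ratios at 0.865 for Zfp961 in Treg-depleted and 0.952 for Zfp367 and 0.954 for Zfp639 in both-treatment cells. Leaving out Foxp3-positive cells gave 90 for both treatments against naive (all genes 19.6%) and 69 for Treg-depleted against untreated (all genes 17.6%). It gave 12 for both treatments against anti-CTLA4 (all genes 9.94%) and 22 for cycling both-treatment cells (all genes 4.68%). The summed Zfp ratio of both treatments to anti-CTLA4 then was 1.14 (median log2 0.062), with Zfp148 at 1.05, Zfp217 at 1.26 and Zfp445 at 1.03. Against naive, Zfp106 was at 1.01 and Zfp318 at 1.16 in Treg-depleted cells, and Zfp217 at 1.07 and Zfp36l2 at 1.00 with both treatments. Zfp106 was at 0.924 of Treg-depleted with both treatments.

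Leaving out both kinds of cell, an alternative chosen after seeing the data, gave 83 for both treatments against naive, 11 and 52 against untreated, and 12 and 5 for both treatments against anti-CTLA4 and Treg-depleted. The summed ratio to anti-CTLA4 was 1.10 (median log2 0.018), with Zfp148 at 1.08 and Zfp217 at 1.15. Against naive, Zfp318 was at 1.10 and Zfp36l1 at 1.06 in anti-CTLA4, Zfp106 at 1.10 and Zfp318 at 1.63 in Treg-depleted, and Zfp217 at 1.11 and Zfp36l2 at 1.05 in both-treatment cells. Against untreated, Treg-depleted cells had Zfp106 at 1.10, Zfp318 at 1.14 and Zfp36 at 1.01. Zfp106 was at 0.835 of Treg-depleted with both treatments.

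Requiring 3 G2M genes, which leaves few cells in some libraries, gave 35, 48 and 34 for cycling naive, untreated and anti-CTLA4 cells. Of all genes, 15.8%, 18.7% and 15.1% were lower under this call. It put 35, 12 and 2 members higher (all genes 18.2%, 10.4% and 7.19%). In naive cells as many members were thus higher as lower (18.5% each, median log2 0.11). There this call gave a summed ratio of 0.990, Zfp740 at 0.679 and Zfp780b at 1.01. Calling cycling without thinning gave 0 and 7 for naive and untreated cells (all genes 0.979% and 4.01%). Calling Foxp3 after thinning gave 17 and 50, with Zfp367 at 0.970 and Zfp593 at 0.934 in Treg-depleted and Zfp938 at 0.979 in both-treatment cells. Except where the number of genes or cells tested sets a change, the cause was not tested. Depth limits single members most in the untreated library, where 3 UMIs are 0.784 CPM.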
